A study of Mus musculus with 24 samples.

Results

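The genes described here are the 9 granzymes Gzma, Gzmb, Gzmc, Gzmd, Gzme, Gzmf, Gzmg, Gzmk and Gzmm and perforin (Prf1), a gene family taken by its name. They are 10 of 35868 genes to which the estimated counts of 24 RNA sequencing libraries were summed. The libraries form 8 groups of 3: CD8+ or CD4+ T cells of *Cat-Tg* or of WT mice, taken before transplantation (pre-tx) or on day 7 after it (post-tx). *Cat-Tg* mice carry, in the heterozygous state, a transgene for a stabilized, N-terminally truncated human β-catenin in a vector with the Lck proximal promoter, which is active in T-lineage cells. The founders were made in FVB and backcrossed to C57BL/6, and WT donors were C57BL/6. Pre-tx cells were sorted from the spleens of these donors. For post-tx, CD4+ and CD8+ donor T cells at a ratio of 1:1 were given with T cell-depleted WT bone marrow to lethally irradiated BALB/c recipients, and cells carrying the donor antigen H-2Kb were sorted from the recipients' spleens. Donors were 8 to 12 weeks old, and 3 mice were used per group. All *Cat-Tg* libraries carry 1 name prefix and all WT libraries another, so a difference between library series and the difference between genotypes cannot be told apart.

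Cytotoxic lymphocytes store granzymes, a family of serine proteases, with perforin in granules that they release onto a target cell. Perforin forms pores through which the granzymes enter. Granzyme A and granzyme K cut after basic residues, granzyme B cuts after aspartate and activates caspases, and granzyme M prefers methionine or leucine. Mice carry a further cluster of granzymes, C to G, next to granzyme B, and killing by this route is one of the ways in which donor T cells attack host and leukemia cells after allogeneic transplantation. The family occupies 3 places in the mouse genome: Gzma and Gzmk on chromosome 13, Prf1 and Gzmm on chromosome 10, and the others on chromosome 14 in the order Gzme, Gzmd, Gzmg, Gzmf, Gzmc, Gzmb, with Gzmn between Gzmg and Gzmf.

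The stretches upstream of 5 members with many of the values below, at least 1 from each of the 3 places in the genome, are shown so that the letters shared by their promoters can be seen. Each is the 250 bases before the RefSeq start (build GRCm38.p6), read 5′ to 3′ toward the gene, with matches to the searched motifs in capitals. As a check, bases just after the start were searched in the opening of the gene's transcripts. They were found for Gzma and Gzmc but not for Gzmb, Gzmk and Prf1, so positions counted from the latter starts are less certain. Searched on both strands were Runx (TGTGGT), T-box (GGTGTGA), TCF/LEF (CTTTGAA or CTTTGAT), AP-1 (TGACTCA) and the cyclic AMP response element CRE (TGACGTCA). The Gzma stretch is chr13:113100982-113101231 on the minus strand, Gzmb is chr14:56262335-56262584 on the minus strand, Gzmc is chr14:56234658-56234907 on the minus strand, Gzmk is chr13:113180966-113181215 on the minus strand and Prf1 is chr10:61297586-61297835 on the plus strand.
Gzma: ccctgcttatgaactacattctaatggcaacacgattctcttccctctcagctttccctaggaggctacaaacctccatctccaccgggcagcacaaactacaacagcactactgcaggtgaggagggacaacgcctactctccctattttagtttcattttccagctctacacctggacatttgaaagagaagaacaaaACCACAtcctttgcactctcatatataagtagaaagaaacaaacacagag
Gzmb: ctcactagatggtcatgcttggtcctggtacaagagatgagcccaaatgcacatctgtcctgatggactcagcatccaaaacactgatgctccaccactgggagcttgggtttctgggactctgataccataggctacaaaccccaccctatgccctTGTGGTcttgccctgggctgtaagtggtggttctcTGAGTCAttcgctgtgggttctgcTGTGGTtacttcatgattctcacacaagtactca
Gzmc: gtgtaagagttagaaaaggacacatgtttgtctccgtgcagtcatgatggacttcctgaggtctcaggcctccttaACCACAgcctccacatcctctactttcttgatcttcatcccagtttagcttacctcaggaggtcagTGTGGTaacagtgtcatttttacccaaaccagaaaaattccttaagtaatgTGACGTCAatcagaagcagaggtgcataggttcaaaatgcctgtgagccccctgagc
Gzmk: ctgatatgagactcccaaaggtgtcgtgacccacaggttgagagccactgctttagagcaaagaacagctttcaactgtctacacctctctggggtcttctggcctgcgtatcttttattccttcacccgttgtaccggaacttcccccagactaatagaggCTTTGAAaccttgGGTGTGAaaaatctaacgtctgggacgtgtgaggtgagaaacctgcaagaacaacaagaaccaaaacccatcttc
Prf1: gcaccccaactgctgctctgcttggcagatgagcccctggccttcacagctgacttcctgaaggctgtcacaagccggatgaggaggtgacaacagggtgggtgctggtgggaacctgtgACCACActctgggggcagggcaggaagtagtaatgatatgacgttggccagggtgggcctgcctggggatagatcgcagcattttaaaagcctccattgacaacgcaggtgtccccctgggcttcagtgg
All 10 members had an entry in the promoter table, Gzmm with 2 starts. The Runx letters were found in 9 of the 10 members, all but Gzmk, and in Gzmm at 1 of its 2 starts. In the same window 14% of all 32851 promoters of the table hold them, a share that counts starts rather than genes. The stretches of Gzmc, Gzmd, Gzme, Gzmf and Gzmg are alike. Each holds a Runx match on both strands, the first of them 195 to 174 bases before the start. The Runx and CRE matches of these genes are therefore not independent cases. The TCF/LEF letters were found in Gzmk alone among the members, 88 to 82 bases before its RefSeq start, which the check above did not match to a transcript. They are in 7.48% of all promoters. The T-box letters were found in Gzmk and at 1 of the 2 starts of Gzmm (3.33% of all promoters), AP-1 in Gzmb (4.46%) and CRE in Gzmc, Gzmf and Gzmg (1.55%). No match overlapped a match to another motif in the 5 stretches shown. These matches describe letters and are not evidence of binding.

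The libraries were checked against their labels before the members were read. Values are CPM, counts scaled to a common library size by TMM over the 24 libraries, unless stated otherwise. Total estimated counts were between 11135713 and 50519825 per library, so that 3 counts, the most that a count of 0 allows, corresponded to between 0.0515 and 0.289 CPM. These reads carry no molecular identifiers, so such limits cover counting error only. Cd8a made up 99.3% to 99.9% of the summed Cd8a and Cd4 CPM in the CD8+ libraries of *Cat-Tg* pre-tx, *Cat-Tg* post-tx and, with a lowest value of 99%, WT post-tx, and at most 3.39% in the matching CD4+ libraries. The libraries labelled WT pre-tx went against their labels: the share was 50% to 63.9% in those labelled CD8+ and 52.4% to 65.4% in those labelled CD4+. In them a list of 12 B cell genes summed to 11000 to 14900 CPM, against 1020 to 3090 CPM in *Cat-Tg* pre-tx, and a list of 12 T cell genes to 1880 to 3180 CPM, against 6470 to 10100 CPM. A list of 7 NK cell genes, which matters here because NK cells carry the same granules, reached 41 to 141 CPM in the CD8+ libraries labelled WT pre-tx and 18.9 to 25.4 CPM in *Cat-Tg* CD8+ pre-tx, with all 7 genes detected in both. In bulk RNA, fewer cells of a type and less RNA per cell cannot be told apart. Each comparison of the members that uses the libraries labelled WT pre-tx is therefore given a further time with library sizes set to the counts of the 12 T cell genes (the T cell scaling), and the others were refitted without these libraries. This scaling moved the median log2 fold change of all tested genes, for example to -2.31 in *Cat-Tg* against WT CD8+ pre-tx and to -2.83 in WT CD8+ post-tx against pre-tx.

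Per length, which allows levels of different genes to be compared, the summed level of the family was higher post-tx than pre-tx in CD8+ and CD4+ libraries. Summed over the 10 members, the TPM (transcript abundance scaled for length) of *Cat-Tg* CD8+ libraries averaged 137 ± 19 (SD, n = 3) pre-tx and 7490 ± 1960 post-tx. In WT CD8+ libraries the sum was 280 ± 148 pre-tx and 4990 ± 3870 post-tx, the latter with a lowest library of 1510 and a highest of 9160 TPM. CD4+ libraries reached lower totals, from 64.4 ± 11.9 to 754 ± 415 TPM in *Cat-Tg* and from 195 ± 47.1 to 1080 ± 173 TPM in WT. In each of the 4 pairs every post-tx library lay above every pre-tx library. In WT the pre-tx libraries are those that go against their labels. Per 1000 CPM of the T cell genes, WT CD4+ Gzma averaged 29 pre-tx and 29.3 post-tx, Prf1 26.8 and 18.8, and Gzmm 4.23 and 2.12. By this measure Gzmb averaged 6.69 pre-tx and 54.9 post-tx, Gzmk 0.562 and 12.6, and Gzmc 0.348 and 1.56.

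The composition of the family also differed between groups. In *Cat-Tg* CD8+ pre-tx no member dominated: Gzmk made up 26.9% ± 5.58 of the summed TPM, Prf1 25.2% ± 2.23, Gzmm 21.9% ± 4.51 and Gzma 18.1% ± 5.32 (SD, n = 3), and these spreads overlap. Post-tx the order was clear, with Gzma at 67.8% ± 2.26, Gzmb at 20.1% ± 2.1, Gzmk at 5.88% ± 0.398, Prf1 at 4% ± 0.974 and Gzmm at 1.95% ± 0.854. In WT CD8+ post-tx Gzma averaged 49.7% ± 21.5 and Gzmb 29.9% ± 7.89, which overlap. *Cat-Tg* CD4+ pre-tx libraries were led by Gzmk at 44.8% ± 6.36, and post-tx by Gzma at 46.2% ± 6.01 with Gzmb at 36.4% ± 3.91. In WT CD4+ post-tx Gzma (36.7% ± 9.15) and Gzmb (37.6% ± 1.36) did not differ beyond their spread. The libraries labelled WT pre-tx had another composition, with Gzma at 76.3% ± 12 in CD8+ and 65.3% ± 8.21 in CD4+, and Gzmk at 0.116% ± 0.0363 and 1.03% ± 0.319.

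**Figure D1:**
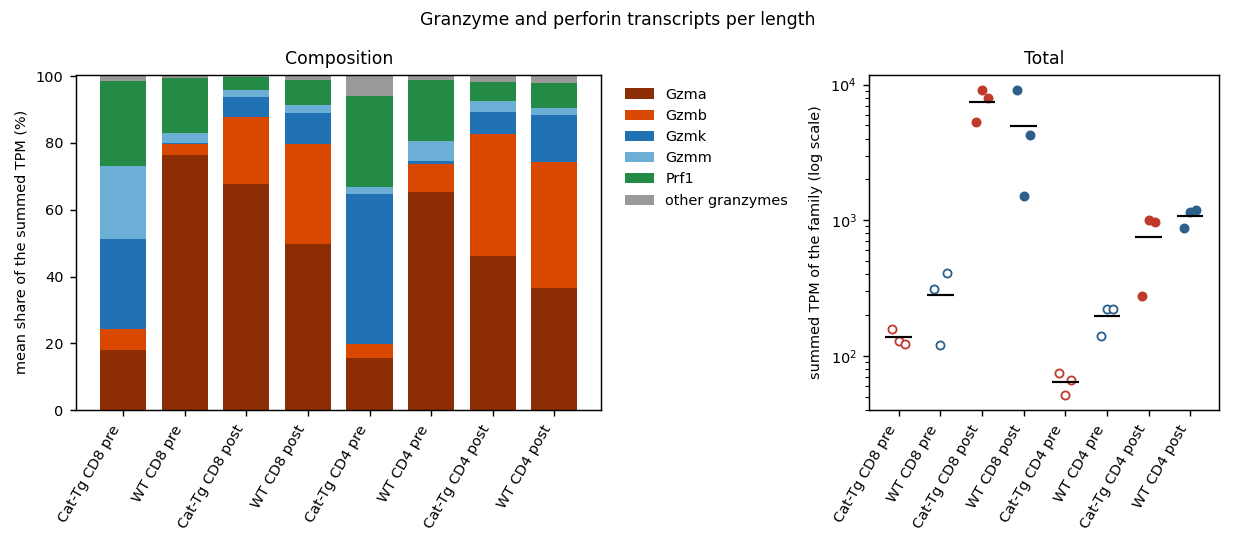
Left, mean share (%) of each member in the summed TPM of the family in the 8 groups (other granzymes are Gzmc to Gzmg). Right, the summed TPM in each library on a log axis, with the group mean as a line. Red points are Cat-Tg, blue points WT, open points pre-tx and filled points post-tx. Gzma and Gzmb fill most of the bar in the 4 post-tx groups, Gzmk leads in Cat-Tg CD4 pre-tx, and CD8 post-tx libraries hold the highest totals, from 1510 to 9170 TPM.

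The ratio of Gzmb to Gzma per length separated the cell types post-tx in *Cat-Tg* libraries. It was 0.313, 0.322 and 0.255 in the CD8+ libraries and 0.852, 0.897 and 0.643 in the CD4+ libraries, so that every CD4+ library held relatively more Gzmb. In WT post-tx the CD8+ values of 0.327, 1.46 and 0.536 overlapped the CD4+ values of 1.49, 0.909 and 0.854. These ratios are given as a description, with no test.

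The rise after transplantation was examined in *Cat-Tg* CD8+ cells first, because none of these 6 libraries goes against its label. The main proteases rose by 2 orders of magnitude and perforin by less. Gzma was 30.1, 20 and 14.1 CPM pre-tx and 2620, 4870 and 4200 CPM post-tx. Gzmb was 16.8, 15.5 and 10.6 CPM pre-tx and 1530, 3050 and 2090 CPM post-tx. The groups of both genes lie far apart. In edgeR's quasi-likelihood test with Benjamini-Hochberg adjustment over all genes, the log2 fold change was 7.52 (SE 0.913, adjusted p = 0.000135) for Gzma and 7.29 (SE 0.718, adjusted p = 2.32e-05) for Gzmb. Prf1 rose from 125, 93.8 and 89.4 CPM to 633, 773 and 821 CPM, which is 2.87 on the log2 scale (SE 0.491, adjusted p = 0.00169). Gzmk, at 36.7, 32.1 and 47.1 CPM pre-tx, reached 290, 479 and 452 CPM (3.41, SE 0.472, adjusted p = 0.000332). Gzmm, at 43.2, 29.8 and 50.6 CPM pre-tx, reached 172, 120 and 189 CPM (1.99, SE 0.452, adjusted p = 0.0101). The intervals of Gzma (5.58 to 9.46) and Gzmm (1.03 to 2.95) do not overlap, so the members did not rise by the same amount.

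A gene was called when its adjusted p was at most 0.05 and its absolute log2 fold change at least 1. By this rule 6 of the 8 members tested in CD8+ cells rose in *Cat-Tg* after transplantation, where 14% of all tested genes were called and 8.73% were called higher. Gzmd and Gzmg did not pass the filter of more than 1 CPM in at least 3 libraries. The sixth, Gzmc, rose from 2.04, 0.0427 and 0.0713 CPM to 6.97, 15.3 and 14.8 CPM (4.13, SE 1.15, adjusted p = 0.0282). That call was lost without pre-tx replicate 2, pre-tx replicate 3 or post-tx replicate 2 (adjusted p up to 0.0859), and the call of Gzmm was lost without pre-tx replicate 2 (adjusted p = 0.0541). The T cell gene list summed to 9200 ± 1240 CPM pre-tx and 10700 ± 306 CPM post-tx and the NK cell list to 23.1 ± 3.65 and 38.1 ± 2.85 CPM (SD, n = 3). With the T cell scaling Gzma still rose by 7.27, Gzmb by 7.03, Gzmk by 3.18, Prf1 by 2.62 and Gzmm by 1.77 on the log2 scale, all called, and Gzmc was at 3.95 without a call (adjusted p = 0.058). That scaling called 12.8% of all tested genes, with a median of -0.51. Fitted without the libraries labelled WT pre-tx, 6 members were called, where 14.2% of all tested genes were called.

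In WT CD8+ cells the same 5 main members rose, against pre-tx libraries that go against their label. Gzma was 122, 37.9 and 163 CPM pre-tx and 6760, 487 and 2180 CPM post-tx. Gzmb was 6.2, 3.44 and 19.4 CPM pre-tx and 4160, 1350 and 2250 CPM post-tx. The WT post-tx libraries differed widely from each other: replicate 1 had the highest Gzma, Gzmb and Gzmk of all 24 libraries but only 205 CPM of Prf1, against 1060 and 833 CPM in replicates 2 and 3. Altogether 7 of the 8 members tested were called higher post-tx, where 23.6% of all tested genes were called and 13.2% were called higher. On the log2 scale the rises were 4.96 (SE 0.811, adjusted p = 0.000451) for Gzma, 8.17 (SE 0.746, adjusted p = 6.26e-06) for Gzmb, 11.42 (SE 0.681, adjusted p = 2.09e-07) for Gzmk, 4.31 (SE 0.501, adjusted p = 3.1e-05) for Gzmm and 3.68 (SE 0.509, adjusted p = 0.000127) for Prf1. With the T cell scaling 6 members were called and Prf1 was not (0.85, adjusted p = 0.0597), where 71% of all tested genes were called at a median of -2.83. Gzmk was close to absent in the CD8+ libraries labelled WT pre-tx, at 0.276, 0.15 and 0.207 CPM.

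**Figure D2:**
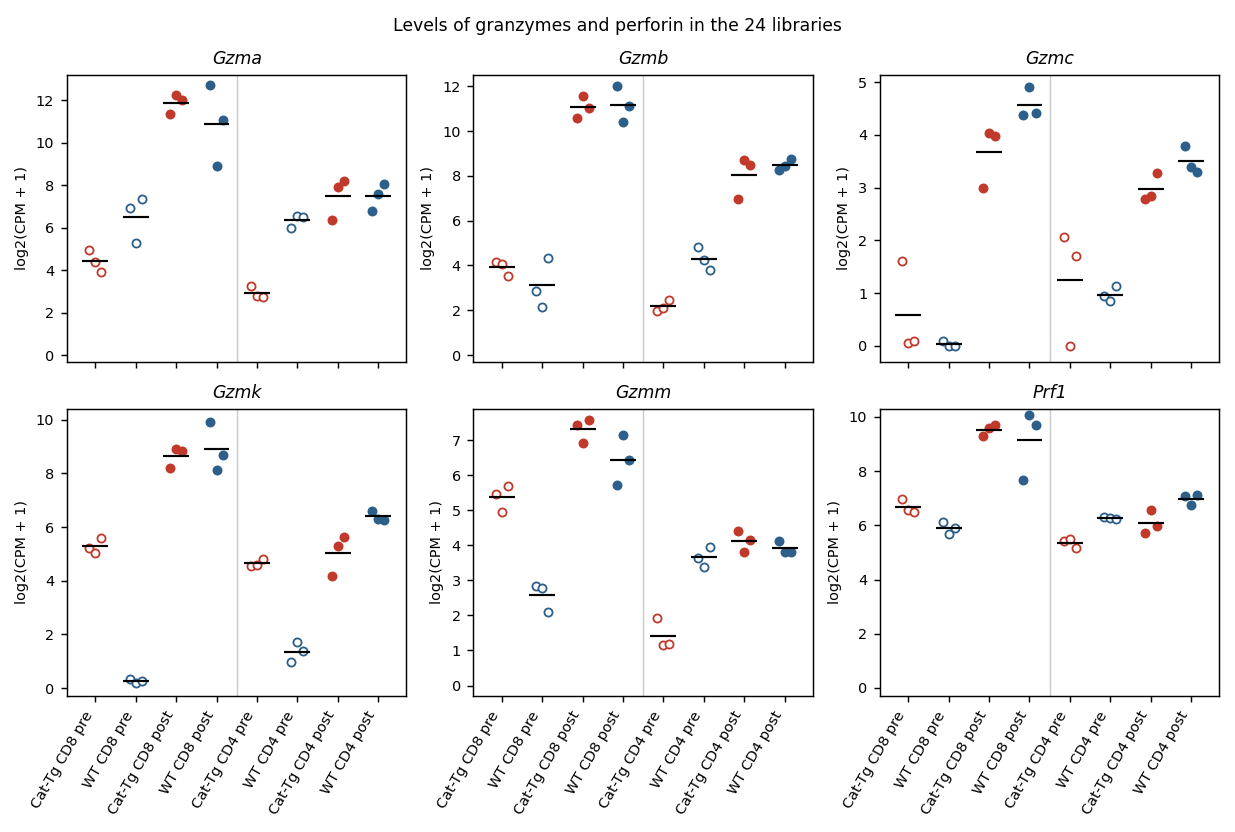
Level of 6 members in each of the 24 libraries as log2(CPM + 1), by group; each point is a library, lines are group means, red is Cat-Tg, blue is WT, open is pre-tx and filled is post-tx. Gzma and Gzmb lie highest in the CD8 post-tx groups, and Gzmk is near 0 in the CD8 libraries labelled WT pre-tx while Cat-Tg CD8 pre-tx libraries hold 32.1 to 47.1 CPM.

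*Cat-Tg* CD8+ pre-tx libraries were then compared with those labelled WT CD8+ pre-tx, which hold both coreceptors and many B cell transcripts. The comparison therefore cannot tell the transgene apart from the makeup of these libraries, under either scaling. Gzmk was 36.7, 32.1 and 47.1 CPM in *Cat-Tg* against 0.276, 0.15 and 0.207 CPM in the libraries labelled WT. Gzmm was 43.2, 29.8 and 50.6 CPM in *Cat-Tg* against 6.1, 5.83 and 3.32 CPM in those labelled WT. Neither gene's groups overlap. Of the 8 members tested 3 were called, all higher in *Cat-Tg*, where 8.98% of all tested genes were called and 4.49% were called higher. Gzmk was higher by 7.49 on the log2 scale (SE 0.595, adjusted p = 2.59e-05) and Gzmm by 3.04 (SE 0.473, adjusted p = 0.00106). The third, Gzmc, had 44 counts in *Cat-Tg*, 41 of them in replicate 1, and 2 counts in WT, a ratio of 30.1 with a 95% counting interval of 7.86 to 256. Its call (4.82, SE 1.4, adjusted p = 0.0419) was lost without *Cat-Tg* replicate 1 (1.28, adjusted p = 0.641) and without any of the 3 libraries labelled WT (adjusted p up to 0.131).

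Gzma went the other way, at 30.1, 20 and 14.1 CPM in *Cat-Tg* against 122, 37.9 and 163 CPM in the libraries labelled WT, which do not overlap, but the difference was not called (-2.32, SE 0.721, adjusted p = 0.0574). Without WT replicate 2 it was called (-2.74, adjusted p = 0.0391). Gzmb (0.58, SE 0.551, adjusted p = 0.595) and Prf1 (0.81, SE 0.461, adjusted p = 0.316) were not called. The libraries labelled WT hold fewer T cell transcripts, and the T cell scaling changed these results. Gzmk remained higher in *Cat-Tg* (5.24, adjusted p = 4.46e-05), Gzmm was no longer called (0.76, adjusted p = 0.12), and Gzmb (-1.68, adjusted p = 0.0344), Prf1 (-1.45, adjusted p = 0.00616) and Gzma (-4.59, adjusted p = 0.000824) were called lower. That scaling called 61.6% of all tested genes, with a median of -2.31. Gzmb and Prf1 lay above that median and Gzma below it. Per 1000 CPM of the T cell genes, Gzmk was 4.19 ± 0.456 in *Cat-Tg* and 0.11 ± 0.037 in the libraries labelled WT, and Gzma 2.36 ± 0.869 and 56.7 ± 35 (SD, n = 3). Of the NK cell genes, Ncr1 had a mean of 2.78 CPM in *Cat-Tg* against 26.6 CPM in the libraries labelled WT (-3.24, adjusted p = 0.0661), and Klrb1c was lower in *Cat-Tg* (-2.49, adjusted p = 0.0417). Their part in the Gzma difference was not tested.

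**Figure D3:**
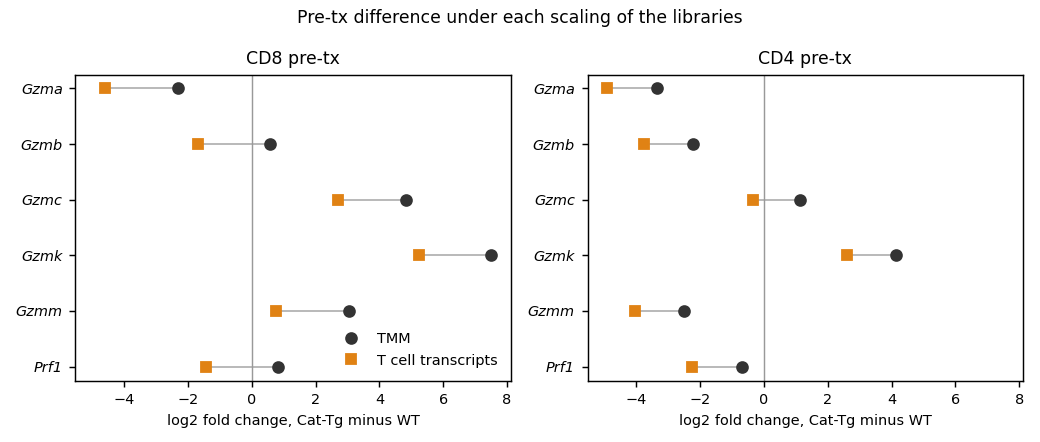
Log2 fold change of Cat-Tg over WT pre-tx for 6 members with TMM scaling (circles) and with library sizes set to the 12 T cell genes (squares), CD8 left and CD4 right. Gzmk lies above 0 under both scalings, Gzma below 0 under both, and Gzmb and Prf1 in CD8 and Gzmc in CD4 change sign. With the T cell genes the median of all tested genes was -2.31 in CD8 and -1.54 in CD4.

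After transplantation no member passed the test between *Cat-Tg* and WT CD8+ libraries, although Gzmc, Gzme and Gzmf were lower in every *Cat-Tg* than in every WT library, as were 11.5% of all tested genes. Gzma had a mean of 3890 CPM in *Cat-Tg* against 3140 CPM in WT, Gzmb 2220 and 2590 CPM, Gzmk 407 and 552 CPM, and Prf1 742 and 698 CPM, and the groups of all 4 overlap. None of the 8 members tested was called by edgeR, where 1.67% of all tested genes were called. Of the members, 1 had an unadjusted p under 0.05, limma-voom called none and DESeq2 called 1, where these methods called 1.51% and 8.54% of all tested genes. That 1 was Gzmf, at 0.358, 0.293 and 0.611 CPM in *Cat-Tg* against 4.26, 2.33 and 8.08 CPM in WT, with adjusted p = 0.173 by edgeR's test and 0.0356 by DESeq2. The 95% intervals were wide: a log2 difference of -1.23 to 1.69 for Gzma, -1.46 to 0.85 for Gzmb, -1.43 to 0.4 for Gzmk, -0.21 to 1.65 for Gzmm and -0.97 to 0.98 for Prf1. Differences within these intervals remain compatible with the data of 3 libraries per group. Without the libraries labelled WT pre-tx 0 members were called, where 1.01% of all tested genes were called. The fold changes moved with single WT libraries, all without a call. Without WT replicate 1 Gzma was at 1.56, Gzmb and Gzmk changed sign (to 0.34 and 0.29) and Prf1 was at -0.28. Without WT replicate 2 Gzma was at -0.17, Prf1 at 0.53 and Gzmm at 1.25.

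The change from pre-tx to post-tx was compared between the genotypes as an interaction. In CD8+ cells Gzmk rose less in *Cat-Tg* than in WT by 8.01 on the log2 scale (SE 0.715, adjusted p = 6.39e-05), and by 5.8 with the T cell scaling (adjusted p = 0.000115). The post-tx levels of the genotypes overlap and the pre-tx levels do not. Of the 8 members 4 were called, all in the same direction, where 10.7% of all tested genes were called and 4.77% were called lower. The other 3, Gzmc, Gzmf and Gzmm, lost their calls when single libraries were left out (in 9 of 12, 7 of 9 and 6 of 12 refits) and with the T cell scaling, under which Gzmm turned to 0.23. Under that scaling Gzma (4.68, adjusted p = 0.00476) and Prf1 (1.77, adjusted p = 0.0173) were called as rising more in *Cat-Tg*, where Prf1 was -0.81 with TMM. The same scaling called 42% of all tested genes, with a median of 2.18, which is above the value of Prf1.

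**Figure D4:**
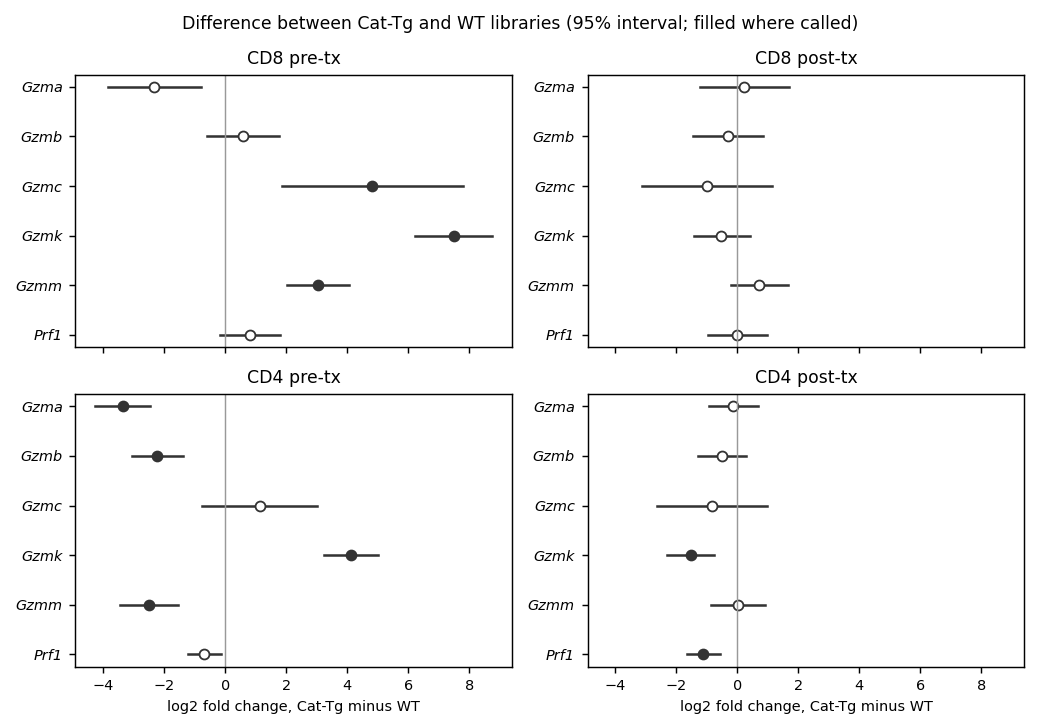
Log2 fold change of Cat-Tg over WT with its 95% interval (edgeR, TMM) for 6 members in CD8 and CD4 libraries, pre-tx and post-tx; filled circles were called. Gzmk lies above 0 in both pre-tx panels, in CD8 post-tx its interval includes 0, and in CD4 post-tx it lies below 0. The signs of Gzmb and Prf1 in CD8 pre-tx and of Gzmc in CD4 pre-tx change with the T cell scaling.

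In CD4+ cells, most of which do not become killers, Gzma and Gzmb also rose after transplantation, to lower levels than in CD8+ cells. In *Cat-Tg* CD4+ cells Gzmb was 2.87, 3.26 and 4.54 CPM pre-tx and 125, 415 and 360 CPM post-tx, and Gzma 8.68, 6.05 and 5.66 CPM pre-tx and 82.9, 240 and 293 CPM post-tx. Replicate 1 was the lowest post-tx library for both genes. Gzmd, Gzme, Gzmf and Gzmg did not pass the filter in CD4+ cells. Of the 6 members tested 3 rose, where 40.9% of all tested genes were called and 13.2% were called higher: Gzmb by 6.06 (SE 0.46, adjusted p = 5.08e-07), Gzma by 4.58 (SE 0.445, adjusted p = 5.35e-06) and Gzmm by 2.92 (SE 0.455, adjusted p = 0.00019). Gzmk did not pass (0.17, SE 0.361, adjusted p = 0.727), at 22.3, 23.2 and 27.2 CPM pre-tx and 16.9, 37.8 and 48.1 CPM post-tx. Prf1 did not pass either (0.44, SE 0.253, adjusted p = 0.162), although its lowest post-tx library of 51.1 CPM lay above the highest pre-tx library of 44.5 CPM. With the T cell scaling Prf1 was called (1.13, adjusted p = 0.00559), where 43.8% of all tested genes were called at a median of 0.28. Markers of other cells moved as well: from pre-tx to post-tx the NK cell list went from 63.3 to 7.38 CPM, the 10 myeloid genes from 1480 to 3650 CPM, 6 red cell genes from 1670 to 14000 CPM and the T cell list from 7180 to 5730 CPM. Their part in the member changes was not tested.

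In WT CD4+ libraries 4 of the 6 members were called higher post-tx, where 22.1% of all tested genes were called and 13.1% were called higher. Gzmk was 0.972, 2.28 and 1.59 CPM pre-tx and 96.2, 78.5 and 76.4 CPM post-tx (5.83, SE 0.452, adjusted p = 4.15e-07). Gzmb was 27.7, 17.8 and 12.9 CPM pre-tx and 309, 342 and 436 CPM post-tx (4.35, SE 0.421, adjusted p = 3.32e-06). Gzmc rose by 3.56 (SE 0.95, adjusted p = 0.0129) and Gzma by 1.34 (SE 0.388, adjusted p = 0.0198). The call of Gzma was lost without any of pre-tx replicates 1 and 3 and post-tx replicates 2 and 3 (adjusted p up to 0.0996). With the T cell scaling only Gzmb (3.04) and Gzmk (4.48) were called, where 48.6% of all tested genes were called at a median of -1.48.

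Pre-tx, *Cat-Tg* CD4+ libraries held less Gzma, Gzmb and Gzmm and more Gzmk than the libraries labelled WT. Gzma was 62.3, 92.5 and 91.6 CPM in the latter, against at most 8.68 CPM in *Cat-Tg* (-3.36, SE 0.422, adjusted p = 8.48e-05). The differences were -2.22 for Gzmb (SE 0.395, adjusted p = 0.00103), -2.51 for Gzmm (SE 0.448, adjusted p = 0.00104) and 4.13 for Gzmk (SE 0.421, adjusted p = 1.92e-05). These are 4 of 6 members, where 18.2% of all tested genes were called. The directions held with the T cell scaling (Gzma -4.91, Gzmb -3.75, Gzmm -4.04, Gzmk 2.59), which added Prf1 (-2.25, adjusted p = 1.97e-05). That scaling called 46.1% of all tested genes, with a median of -1.54. The libraries labelled WT CD4+ pre-tx also held Cd8a at a share like that of the libraries labelled CD8+, and the part of this in the Gzma, Gzmb and Gzmm differences was not tested. NK cell genes summed to 52 to 82.3 CPM in *Cat-Tg* against 60.3 to 91.4 CPM in the libraries labelled WT, but 1 gene, Klrb1c, made up most of the *Cat-Tg* sum (53.7 CPM, and 32.3 CPM in those labelled WT). The other 6 had lower means in *Cat-Tg*, such as Ncr1 with 1.58 against 13.5 CPM (-2.86, adjusted p = 0.072), and Klra4 (-3.02, adjusted p = 0.0283) and Klra8 (-3.98, adjusted p = 0.0358) were called lower. Their part in the Gzma, Gzmb and Gzmm differences was not tested.

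Post-tx, where both groups of CD4+ libraries hold their coreceptor, 2 of the 6 members were lower in *Cat-Tg*, where 10% of all tested genes were called and 6.41% were called lower. Gzmk was 16.9, 37.8 and 48.1 CPM in *Cat-Tg* against 96.2, 78.5 and 76.4 CPM in WT (-1.53, SE 0.367, adjusted p = 0.0157). Prf1 was 51.1, 92.7 and 61.7 CPM in *Cat-Tg* against 136, 106 and 137 CPM in WT (-1.11, SE 0.254, adjusted p = 0.012). The groups of neither gene overlap. Both calls depended on single libraries. Gzmk lost its call without WT replicate 1 or 2 (adjusted p up to 0.0535) and Prf1 without *Cat-Tg* replicate 1 (-0.95) or 3 (adjusted p = 0.0672). Without the libraries labelled WT pre-tx Gzmk kept its call and Prf1 fell just under the fold threshold (-0.95, adjusted p = 0.0419). With the T cell scaling neither was called (Gzmk -1.04, adjusted p = 0.106, and Prf1 -0.61, adjusted p = 0.173). The T cell genes summed to 5730 ± 618 CPM in *Cat-Tg* against 6740 ± 1170 CPM in WT, the 12 B cell genes to 2240 ± 929 and 756 ± 46.5 CPM, 10 myeloid genes to 3650 ± 804 and 952 ± 203 CPM, and the 6 red cell genes to 14000 ± 11500 and 797 ± 263 CPM. The part of these transcripts in the Gzmk and Prf1 differences was not tested.

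Gzma had a mean of 205 CPM in *Cat-Tg* against 191 CPM in WT CD4+ post-tx and Gzmb 300 and 362 CPM, and neither was called (-0.13, interval -0.94 to 0.68, and -0.5, interval -1.28 to 0.27). The sign of Gzma differs from that of the means, which were scaled over the 24 libraries, whereas the fold change was scaled over the 12 CD4+ libraries, and it turned to 0.33 with the T cell scaling. As an interaction, Gzma rose more in *Cat-Tg* than in WT CD4+ cells by 3.23 (SE 0.557, adjusted p = 0.00113), Gzmb by 1.71 (SE 0.531, adjusted p = 0.0319) and Gzmm by 2.52 (SE 0.605, adjusted p = 0.00906), and Gzmk less by 5.66 (SE 0.556, adjusted p = 1.18e-05). These are 4 of 6 members, where 21.2% of all tested genes were called. The call of Gzmb was lost in 5 of 12 refits that left out 1 library (adjusted p up to 0.0762). All 4 directions held with the T cell scaling (Gzma 5.23, Gzmb 3.74, Gzmm 4.5, Gzmk -3.63), which added Prf1 (1.63, adjusted p = 0.00405), at -0.42 with TMM. That scaling called 40.5% of all tested genes, with a median of 1.45, which is near the value of Prf1.

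CD8+ and CD4+ cells were compared where the libraries hold the coreceptor of their label. Both were sorted from the same mice, but the test treats the libraries as independent. Before transplantation, Gzmm stood out in *Cat-Tg* cells, at 43.2, 29.8 and 50.6 CPM in CD8+ and 2.81, 1.21 and 1.26 CPM in CD4+ (4.53, SE 0.457, adjusted p = 1.06e-06). It was the 1 member called of 8, where 1.52% of all tested genes were called and 0.367% were called higher. Gzma, Gzmb, Gzmk and Prf1 were also higher in every CD8+ than in every CD4+ library, without a call (adjusted p = 0.293, 0.0569, 0.654 and 0.0804). Groups did not overlap, with CD8+ higher, for 5 of 8 members and for 8.04% of all tested genes. Without the libraries labelled WT pre-tx Gzmb was called too (1.99, adjusted p = 0.0213).

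After transplantation 5 of 8 members were called higher in CD8+ cells in each genotype, namely Gzma, Gzmb, Gzmk, Gzmm and Prf1, where 5.85% of all tested genes were called in *Cat-Tg* (1.34% higher in CD8+) and 12.8% in WT (5.71% higher). In *Cat-Tg* the log2 differences were 4.25 for Gzma (SE 0.695, adjusted p = 0.000267), 2.89 for Gzmb (SE 0.537, adjusted p = 0.00107), 3.56 for Gzmk (SE 0.442, adjusted p = 9.63e-06), 3.26 for Gzmm (SE 0.426, adjusted p = 1.83e-05) and 3.44 for Prf1 (SE 0.409, adjusted p = 6.29e-06). In WT they were 4.04 for Gzma, 2.84 for Gzmb, 2.72 for Gzmk, 2.71 for Gzmm and 2.47 for Prf1, with adjusted p between 0.000111 and 0.000827. These calls held in every refit without 1 library and with the T cell scaling, where they ranged from 1.56 (Prf1 in WT) to 3.54 (Gzma in WT). That scaling called 13.8% of all tested genes in *Cat-Tg* and 18.1% in WT. For the libraries labelled WT pre-tx only values are given: Gzma averaged 108 CPM in those labelled CD8+ and 82.1 CPM in those labelled CD4+, Gzmm 5.08 and 11.8 CPM, and Prf1 59.3 and 76.2 CPM.

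The remaining granzymes of the chromosome 14 cluster were scarce. Gzmc was the only one of them above 3 counts in most libraries (18 of 24) and was highest in WT CD8+ post-tx, at 19.8, 28.8 and 20.4 CPM, with no *Cat-Tg* CD8+ post-tx library above 15.3 CPM (-0.98, SE 1.01, adjusted p = 0.621). Gzmf was above 3 counts in 10 libraries, Gzme in 8, Gzmd in 5 and Gzmg in 2. Gzmf was at 0 counts in all 3 CD8+ libraries labelled WT pre-tx and at 63, 38 and 203 counts in WT CD8+ post-tx. In CPM this is at least 43.6-fold higher when 3 counts per library are taken as the limit. It is not a limit per T cell transcript, because the T cell genes summed to 1940 CPM in the former and 11800 CPM in the latter libraries. Gzme was 16, 175 and 54 counts in WT CD8+ post-tx against 0, 0 and 23 in *Cat-Tg* CD8+ post-tx (-4.25, SE 2.25, adjusted p = 0.316). In WT post-tx cells Gzme had 245 counts in CD8+ and 3 in CD4+ libraries, a ratio of 202 (95% counting interval 68.2 to 984). Of the 245 counts 175 came from replicate 2, and the difference was not called (7.52, SE 2.6, adjusted p = 0.0586). Gzmd and Gzmg showed isolated libraries with counts, such as 43 counts of Gzmd in *Cat-Tg* CD8+ pre-tx replicate 2 and 25 counts of Gzmg in *Cat-Tg* CD4+ pre-tx replicate 2, beside libraries at 0. These genes are near copies: 39.3% of the 31-base words of Gzme, 37.8% of those of Gzmd, 28.8% of Gzmg, 19% of Gzmf and 14.8% of Gzmc occur in other members, whereas Gzma, Gzmk, Gzmm and Prf1 share none and Gzmb 1.4%. Their estimated counts are therefore uncertain among each other.

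Several members are counted over more than 1 transcript. Of the Gzmk counts 69.39% lay on its main coding transcript and 19.36% on a transcript annotated as a target of nonsense-mediated decay, and the latter share averaged between 17% and 21.6% in the 6 groups in which every library had at least 20 counts. The longer coding transcript of Prf1 held 88.3% ± 3.44 of its counts in WT CD8+ post-tx and 75.3% ± 9.41 in *Cat-Tg* CD8+ post-tx, with a highest *Cat-Tg* library of 82% and a lowest WT library of 84.4%. No test was made on transcript shares.

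The pathway that loads and releases these proteases was read from lists of other genes. Of 11 genes of granule cargo and processing, 5 rose and 1 fell in *Cat-Tg* CD8+ cells after transplantation (median log2 fold change 0.88, and -0.26 over all tested genes), where 14% of all tested genes were called and 8.73% were called higher. Pathway values that use the libraries labelled WT pre-tx are given with the T cell scaling as well, a refit chosen after the data had been seen. That scaling called 61.6% of all tested genes in *Cat-Tg* against WT CD8+ pre-tx (median -2.31) and 71% in WT CD8+ post-tx against pre-tx (median -2.83). It called 42% in the CD8+ interaction (median 2.18) and 48.6% in WT CD4+ post-tx against pre-tx (median -1.48). Nkg7, a granule membrane protein needed for exocytosis, rose from 1250 to 6100 CPM in *Cat-Tg* (2.3, SE 0.424, adjusted p = 0.00285) and from 304 to 7650 CPM in WT (4.78, SE 0.474, adjusted p = 1.05e-05; 1.95 with the T cell scaling, called). Ctsc, the peptidase that activates granzymes, rose in *Cat-Tg* (1.66, SE 0.446, adjusted p = 0.0237) and averaged 275 CPM pre-tx and 108 CPM post-tx in WT (-1.24, adjusted p = 0.0543). The interaction was called (2.9, SE 0.628, adjusted p = 0.00837). With the T cell scaling it was 5.33 (adjusted p = 4.06e-05), and the fall in WT was called (-3.86). That scaling does not account for transcripts of other cells. The libraries labelled WT CD8+ pre-tx held 12500 CPM of B cell and 2200 CPM of myeloid genes, against 616 and 191 CPM post-tx. The part of these transcripts in the Ctsc values was not tested. Cst7, which encodes cystatin F, an inhibitor of cathepsins, was 228 CPM in *Cat-Tg* pre-tx and 33.9 CPM in the libraries labelled WT (2.76, SE 0.391, adjusted p = 0.000638), a call that was lost with the T cell scaling (0.49, adjusted p = 0.195). It did not pass between pre-tx and post-tx in *Cat-Tg* CD8+ cells (0.76, adjusted p = 0.156). Srgn, the proteoglycan on which granzymes are stored, averaged 258 CPM pre-tx and 231 CPM post-tx in *Cat-Tg* CD8+ cells (-0.15, SE 0.449, adjusted p = 0.825). Gnptab, which makes the mannose 6-phosphate tag that directs granzymes to the granule, rose by 3.55 (SE 0.593, adjusted p = 0.00146) in *Cat-Tg* CD8+ cells, and the lysosomal protease gene Ctsl fell by 2.74 (adjusted p = 0.00397). In *Cat-Tg* CD4+ cells 6 of the 11 genes rose and none fell (median 1.01, and -0.38 over all genes, of which 40.9% were called and 13.2% higher). In WT CD4+ cells 7 rose and none fell (median 1.17, and -0.14 over all genes, of which 22.1% were called and 13.1% higher), but with the T cell scaling 1 was called higher and 2 lower.

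Of 9 genes of granule exocytosis, 3 rose in *Cat-Tg* CD8+ cells and none fell (median 1.15, and -0.26 over all genes, of which 14% were called and 8.73% higher). They include Rab27a, which docks granules at the membrane (26.4 to 131 CPM, 2.32, SE 0.422, adjusted p = 0.00253), and Stx11, a fusion protein (2.98, SE 0.756, adjusted p = 0.018). In *Cat-Tg* CD4+ cells Rab27a rose by 1.53 (adjusted p = 0.00189) and Stx11 by 1.84 (adjusted p = 0.000952).

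Serpins, which protect the killer cell from its own proteases, rose together with them: 5 of 6 in *Cat-Tg* CD8+, 4 of 6 in WT CD8+, 5 of 6 in *Cat-Tg* CD4+ and 6 of 6 in WT CD4+ cells. The medians were 3.3, 1.89, 3.01 and 3.99 on the log2 scale, and -0.26, -0.23, -0.38 and -0.14 over all tested genes, of which 8.73%, 13.2%, 13.2% and 13.1% were called higher. By the T cell scaling 2 serpins were called higher and 1 lower in WT CD8+ cells, and 5 higher in WT CD4+ cells. That scaling called 71% and 48.6% of all tested genes, with medians of -2.83 and -1.48. Serpinb9, an inhibitor of granzyme B, rose from 35.3 to 396 CPM in *Cat-Tg* CD8+ cells (3.5, SE 0.591, adjusted p = 0.00156) and from 33.1 to 170 CPM in *Cat-Tg* CD4+ cells (2.02, SE 0.463, adjusted p = 0.00306). Serpinb6b rose by 3.35 (SE 0.686, adjusted p = 0.00546) and Serpinb9b by 5.74 (SE 0.835, adjusted p = 0.000517) in *Cat-Tg* CD8+ cells. Serpina3f was higher in CD4+ than in CD8+ libraries post-tx, at 329 CPM in *Cat-Tg* CD4+ and 39.2 CPM in *Cat-Tg* CD8+ (-3.07, SE 0.583, adjusted p = 0.00134), which is opposite in direction to the granzymes. These CD4+ libraries also held more myeloid (3650 against 504 CPM) and B cell transcripts (2240 against 785 CPM). The part of these transcripts in the Serpina3f difference was not tested. Between *Cat-Tg* and WT CD8+ post-tx none of the 6 serpins was called by edgeR and none had an unadjusted p under 0.05. Only 1.67% of all tested genes were called there, so no call among 6 genes does not show equal levels.

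Of 16 transcription factors, 9 rose and 3 fell in *Cat-Tg* CD8+ cells (median 1.66, and -0.26 over all genes, of which 14% were called and 8.73% higher). Tbx21, which drives the cytotoxic program, rose from 38 to 821 CPM (4.44, SE 0.557, adjusted p = 0.000161), Prdm1 from 0.959 to 28.8 CPM (4.92, SE 0.818, adjusted p = 0.00142), Eomes from 18.5 to 62.9 CPM (1.78, SE 0.469, adjusted p = 0.0211) and Runx3 from 37.5 to 206 CPM (2.47, SE 0.48, adjusted p = 0.00394). Tcf7, the TCF factor through which β-catenin acts in T cells, fell by 3.28 (SE 0.456, adjusted p = 0.000337). In WT CD8+ cells Tbx21 rose by 2.96 and Tcf7 fell by 2.65, both called, while Eomes, Prdm1 and Runx3 were not called (adjusted p = 0.288, 0.138 and 0.426). Under the T cell scaling Tcf7 still fell in WT (-5.4), Tbx21 was not called (0.09, adjusted p = 0.844), and Eomes (-1.84) and Runx3 (-2.29) were called lower. That scaling called 71% of all tested genes, with a median of -2.83. Tbx21, Eomes and Runx3 lay above that median and Tcf7 below it. Between the genotypes in CD8+ post-tx 1 of the 16 was called, where 1.67% of all tested genes were called. It was Bhlhe40, at 647 CPM in *Cat-Tg* against 147 CPM in WT (2.05, SE 0.491, adjusted p = 0.0482). This adjusted p is close to the threshold, and values of Bhlhe40 without single libraries or by other methods are not given. Irf4 rose by 3.22 in *Cat-Tg* CD8+ cells (SE 1, adjusted p = 0.0446). In CD4+ post-tx cells Tcf7 was lower in *Cat-Tg* (69.6 and 132 CPM, -1.15, SE 0.222, adjusted p = 0.00464), in the libraries whose myeloid and B cell genes were given above.

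**Figure D5:**
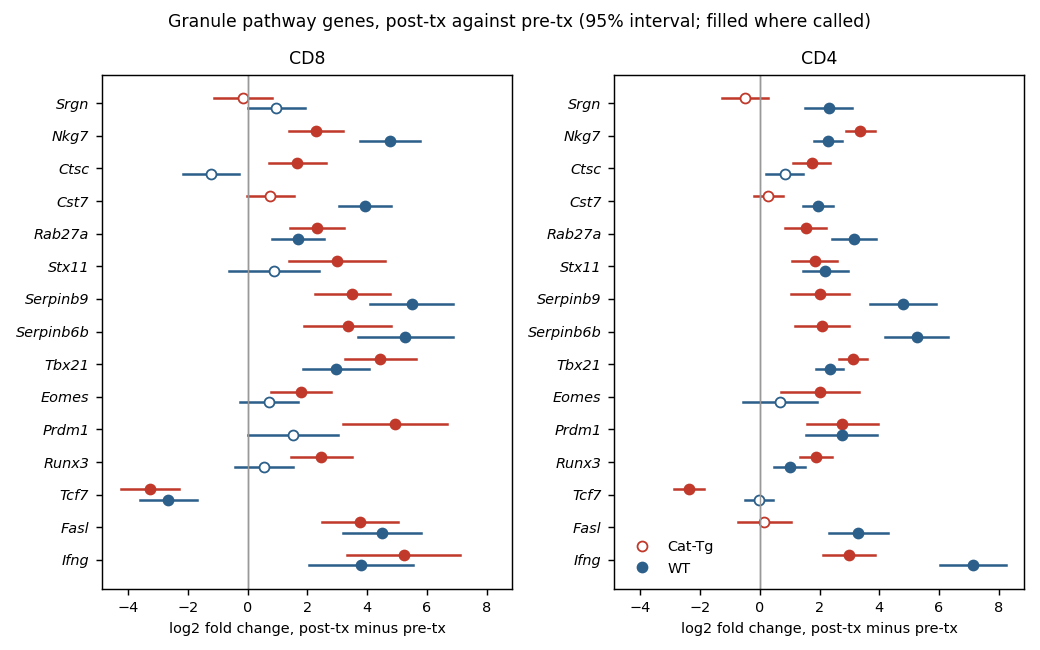
Log2 fold change post-tx over pre-tx with its 95% interval (edgeR, TMM) for 15 genes of the granule pathway, its inhibitors, transcription factors and effector ligands in CD8 and CD4 libraries; red is Cat-Tg, blue is WT and filled circles were called. Serpinb9 and Serpinb6b rose in CD8 and CD4 of both genotypes, also with the T cell scaling in WT, Tcf7 fell in CD8 of both genotypes and in Cat-Tg CD4, and Srgn in Cat-Tg lies near 0.

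Of 5 other killing and effector ligands 2 rose in *Cat-Tg* CD8+ cells (median over the 5 of -0.47, and -0.26 over all genes, of which 14% were called and 8.73% higher), Fasl from 10.4 to 138 CPM (3.75, SE 0.598, adjusted p = 0.00104) and Ifng from 0.652 to 24 CPM (5.22, SE 0.892, adjusted p = 0.00168). In CD4+ post-tx cells Ifng was lower in *Cat-Tg* (23.7 and 67 CPM, -1.73, SE 0.392, adjusted p = 0.0112) and so was Cst7 (-1.06, SE 0.233, adjusted p = 0.00956). In that comparison 10% of all tested genes were called and 6.41% were called lower. The *Cat-Tg* libraries held more myeloid (3650 against 952 CPM) and B cell transcripts (2240 against 756 CPM). The part of these transcripts in both differences was not tested, and values of Ifng and Cst7 with the T cell scaling are not given. Of 8 genes beside the granzymes on chromosome 14 that belong to mast cell proteases and relatives, 3 passed the filter in each cell type. Mcpt8, a basophil protease, averaged 22.2 CPM in WT CD4+ post-tx and 1.18 CPM in WT CD8+ post-tx (-4.24, SE 0.93, adjusted p = 0.00311), which is opposite in direction to Gzmb. The 5 mast cell and basophil genes summed to 8.97 to 28.6 CPM in the former and 0.438 to 3.58 CPM in the latter libraries.

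Across the 24 libraries, the genes whose log2 CPM followed Gzmb most closely were Asf1b (Pearson's r = 0.976), a histone chaperone, Anxa2 (0.976) and Cks1b (0.97), a cell cycle regulator, and over the 18 libraries without those labelled WT pre-tx Asf1b (0.983), Cks1b (0.981) and Birc5 (0.98). Prf1 was most like the chemokine Ccl5 (0.938 over 24 and 0.946 over 18 libraries) and Gzmm most like Cd7 (0.957 and 0.962), with the granule protease Ctsw among its 3 nearest genes (0.929 and 0.938). Gzmk was nearest to S100a10 (0.966) over 24 and to the killer cell receptor gene Cd160 (0.946) over 18 libraries. Gzma was nearest to Dapk2 (0.924) over 24 and to Cdkn3 (0.96) over 18. These correlations are a description over libraries that fall into 8 groups and share their genotype, cell type and day.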

How the data were processed

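The deposited tables hold, per transcript and library, an estimated count and TPM, which the authors made with Kallisto 0.46.2 from SMART-Seq HT and Nextera XT libraries. The labels list the build mm9, and the index release is not given in the sources used here. The authors' own analysis used TPM with limma-voom, separately in each cell type. The 10 genes and the gene lists were chosen with earlier results of these data known.

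Estimated counts were summed to gene symbols through GENCODE M21 (116428 of 117497 transcripts matched, with 99.64% to 99.76% of each library's counts) and rounded. Genes above 1 CPM in 3 or more libraries were tested with edgeR 4.0.16 (R 4.3.3; TMM, robust quasi-likelihood F test, Benjamini-Hochberg adjustment): 15975 genes in the 12 CD8+ libraries, 17243 in the 12 CD4+ libraries, and 19092 in all 24 libraries for CD8+ against CD4+. Standard errors were taken from the fold change and the F statistic. The procedure was tested on simulated data. TPM was used only to compare levels between genes. Named were all members, a fixed set of pathway genes, from each list the 2 other called genes with the largest change between genotypes post-tx or between times in *Cat-Tg*, and for each member above 3 counts in at least 12 libraries the 3 genes with the most similar log2 CPM. Klrb1c was named after its values were seen. Pathway genes were also fitted with library sizes set to the T cell genes where the libraries labelled WT pre-tx enter, which was chosen after seeing the data. Alternatives were DESeq2 1.42.0, limma-voom (limma 3.58.1), other scalings, filters and thresholds, a replicate block, and leaving out each library. Libraries of 1 group came from separate mice according to the study, and p-values measure the spread between them. CD4+ and CD8+ cells were sorted from each mouse, so the CD8+ and CD4+ groups share mice. Which number is which mouse is not stated, and the CD8+ against CD4+ tests treat libraries as independent. Promoter sequences came from RefSeq. No protein sequences were used here.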

Additional observations from a re-analysis of the deposited data

Results flagged for a closer look

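For 8 results the change from pre-tx to post-tx differed between *Cat-Tg* and WT by the interaction test (edgeR's quasi-likelihood test, adjusted over all genes), and all use the libraries labelled WT pre-tx, which go against their labels. In CD8+ cells these were Gzmk (-8.01), Gzmc (-5.81), Gzmf (-7.42) and Gzmm (-2.32), as the log2 change in *Cat-Tg* minus that in WT. The value of Gzmf depends on the prior count, because the 3 libraries labelled WT CD8+ pre-tx are at 0. In CD4+ cells they were Gzma (3.23), Gzmb (1.71), Gzmk (-5.66) and Gzmm (2.52). What sets these differences was not tested.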

How the results depend on the processing

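Of 779 values recomputed under other settings, not counting refits without 1 library, 718 kept their direction and side of the threshold, 19 became called, 23 lost a call and 19 changed sign. The number of members called in CD8+ post-tx between genotypes was 0 and became 1 with DESeq2, which called 8.54% of all tested genes. For the interaction in CD8+ cells 4 members were called, where 10.7% of all tested genes were called. With limma-voom 2 were called (11.5% of all tested genes), with length-scaled TPM 2 (10.7%) and with the replicate block 2 (9.5%). In CD4+ post-tx between genotypes 2 were called, where 10% of all tested genes were called. The count was 0 at a log2 fold change of 2, 1 with DESeq2 (15% of all tested genes) and 1 with DESeq2 size factors (9.46%). It was 1 without a filter (4.28%), 0 with the T cell scaling (9.74%) and 1 without the libraries labelled WT pre-tx (9.16%). For WT CD4+ post-tx against pre-tx 4 (22.1% of all tested genes) became 2 with the T cell scaling (48.6%). For CD8+ against CD4+ in *Cat-Tg* pre-tx 1 (1.52% of all tested genes) became 3 with DESeq2 (3.26%) and 2 with DESeq2 size factors (1.51%). It became 2 with only the libraries compared (2.36%) and 2 without the libraries labelled WT pre-tx (1.81%). The cause was not tested.

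The T cell scaling turned Gzmb (-1.68) and Prf1 (-1.45) in CD8+ pre-tx, Gzmb (1.36), Gzmm (0.23) and Prf1 (1.77) in the CD8+ interaction, Gzmc (-0.36) in CD4+ pre-tx, Gzma (0.33) in CD4+ post-tx, Gzmm (-1) and Prf1 (-0.51) in WT CD4+ post-tx against pre-tx, Prf1 (1.63) in the CD4+ interaction and Gzmc (-0.08) in CD8+ against CD4+ of *Cat-Tg* post-tx. Both DESeq2 settings turned Prf1 in CD8+ post-tx (-0.13 each). In CD4+ post-tx Gzmm turned with limma-voom (-0.1), length-scaled TPM (-0.03) and the block (-0.01), and Gzma (0.03) without the libraries labelled WT pre-tx. With limma-voom Gzmc turned in CD4+ pre-tx (-0.36). Of 9 named pathway values refitted with the T cell scaling after the data had been seen, 3 kept direction and call, 2 lost a call, 1 gained one and 3 turned: in WT CD8+ post-tx against pre-tx Eomes (-1.84), Prdm1 (-0.99) and Runx3 (-2.29). The median of all tested genes in that comparison was -2.83.

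Leaving out 1 library gave 2 to 3 members called in CD8+ pre-tx, 0 in CD8+ post-tx, 4 to 6 in *Cat-Tg* CD8+ and 6 to 7 in WT CD8+ post-tx against pre-tx, 1 to 4 in the CD8+ interaction, 4 to 5 in CD4+ pre-tx, 1 to 2 in CD4+ post-tx, 3 in *Cat-Tg* CD4+ and 3 to 4 in WT CD4+ post-tx against pre-tx, 3 to 4 in the CD4+ interaction, and 1, 5 and 5 to 6 in CD8+ against CD4+. The share of all tested genes called in these refits is not given, so these counts cannot be set against it.

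The replicate numbers were not found to pair the libraries: same-numbered correlations of deviations ranged from -0.263 to 0.176, and no pair of groups had all 3 above 0.1. With the replicate block Gzmc lost its call in CD8+ pre-tx (4.37, adjusted p = 0.0763 by edgeR), as did Gzmc (-5.24) and Gzmf (-6.92) in the CD8+ interaction, and Gzme turned (0.69) in *Cat-Tg* CD8+ post-tx against pre-tx. Depth limits Gzmd, Gzme, Gzmf and Gzmg, which were at or under 3 counts in most libraries.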
